A study of Drosophila melanogaster with 2 samples.

Results

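The microRNA (miRNA) genes of Drosophila melanogaster were examined for nearby binding of fd102C, a transcription factor with a fork head DNA-binding domain. A gene was a member when its symbol in the Ensembl annotation began with mir-, which took in bantam (mir-ban) and let-7 (mir-let7). The annotation held 262 such genes, of which 260 lay on the chromosome arms, among 17683 annotated genes there, and 2 lay on the ribosomal DNA unit and were not used. Hairpins closer than 10 kb were joined, which gave 198 loci, 27 of them with several hairpins and at most 12. The hairpins, the folded stretches that hold the mature miRNA, had a median length of 92 bp, from 50 to 174 bp.

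Binding was read from deposited ChIP-seq peak lists of whole embryos of both sexes, aged 2 to 6 h, from the strain fd102C-GFP, which stably carries fd102C with GFP at its C terminus. There were 2 biological replicates in 1 group and no untreated or wild-type group. The embryos were whole, so a peak near a miRNA gene gives neither the cell type in which fd102C was bound nor whether the miRNA was made there. The description field of the labels calls both samples input controls, while the assay and antibody fields name a ChIP of fd102C, and they were used as ChIP. The pooled list of both replicates held 30000 peaks, and a thresholded list held the 2031 of them with the highest signal, from 126 to 2068. The signal is the authors' value for each peak, on a scale that no source names, and ranks run from 1 for the highest. The number of reads behind a peak is unknown, and with 1 group there was no contrast to test, so all results are counts and values set beside the same count over genome positions or genes.

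A miRNA gene is transcribed as a long primary transcript, from its own promoter or as part of a host gene's intron. Drosha and Pasha cut the hairpin out in the nucleus, Dicer-1 cuts the mature miRNA from it, and the miRNA then guides the Argonaute protein AGO1 to messenger RNAs that pair with its seed, bases 2 to 8. Because the promoter can lie far from the hairpin, a binding site that bears on a miRNA gene can lie around the start of the primary transcript rather than over the hairpin. The main counts below were nevertheless made by distance from the hairpin, not from that start. In the early embryo miRNAs take part in the removal of maternal RNA, in growth, in the control of cell death and in the choice of neural fates.

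The mature miRNAs of the loci with a named role that had a thresholded summit within 5 kb are shown first, since they say which seed each of these genes contributes. For each hairpin the product listed first by RefSeq (Release 6 assembly) is given 5′ to 3′ with the seed in capitals. The list also holds mir-92a and mir-92b, which share a seed.
mir-ban: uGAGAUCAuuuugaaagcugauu
mir-9a: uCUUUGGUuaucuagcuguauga
mir-279: uGACUAGAuccacacucauuaa
mir-996: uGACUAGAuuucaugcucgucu
mir-13a: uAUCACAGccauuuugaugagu
mir-13b-1: uAUCACAGccauuuugacgagu
mir-2c: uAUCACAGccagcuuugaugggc
mir-bft: aAUGGCACuggaagaauucacggg
mir-263b: cUUGGCACugggagaauucac
mir-92a: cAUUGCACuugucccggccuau
mir-92b: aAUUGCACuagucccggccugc
Sequences were read for 73 mature products of 39 hairpins, all in loci with a summit within 5 kb. Among these products, 3 seeds were each shared by more than 1 product. AUCACAG was shared by the 3 hairpins mir-13a, mir-13b-1 and mir-2c, GACUAGA by mir-279 and mir-996, and AUUGCAC by mir-92a and mir-92b. In each case the hairpins that shared a seed belonged to the same locus.

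The DNA under 4 of the summits near miRNA loci outside protein-coding genes is shown next, because these windows carry the highest peaks of the set (mir-9a and mir-279/mir-996), the peak of bantam, and the window with the most fork head letters among those loci (mir-957). Each is the plus strand of dm6, 100 bp on each side of the summit, with ATAAACA or ATAAATA or GTAAACA or GTAAATA (fork head letters, on either strand) and ACACTG (either strand) in capitals.
mir-9a, chr3L:19560744-19560944: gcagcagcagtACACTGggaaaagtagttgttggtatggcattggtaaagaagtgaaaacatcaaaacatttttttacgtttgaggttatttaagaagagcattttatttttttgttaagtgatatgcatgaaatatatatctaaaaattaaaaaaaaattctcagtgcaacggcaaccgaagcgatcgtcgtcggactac
mir-279/mir-996, chr3R:29214343-29214543: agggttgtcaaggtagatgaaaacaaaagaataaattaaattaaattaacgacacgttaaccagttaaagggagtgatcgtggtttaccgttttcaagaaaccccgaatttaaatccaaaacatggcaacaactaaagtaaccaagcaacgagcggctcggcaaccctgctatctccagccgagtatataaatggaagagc
mir-ban, chr3L:640661-640861: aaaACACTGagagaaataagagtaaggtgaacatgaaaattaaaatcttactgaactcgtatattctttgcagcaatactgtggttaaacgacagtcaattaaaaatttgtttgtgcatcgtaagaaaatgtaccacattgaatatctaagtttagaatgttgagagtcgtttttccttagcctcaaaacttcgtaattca
mir-957, chr3L:22520109-22520309: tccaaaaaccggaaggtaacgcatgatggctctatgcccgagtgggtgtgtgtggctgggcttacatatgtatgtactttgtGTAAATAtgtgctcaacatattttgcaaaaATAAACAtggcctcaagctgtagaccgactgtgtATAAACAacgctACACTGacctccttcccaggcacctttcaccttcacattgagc
The windows of mir-9a and mir-ban held ACACTG and no fork head letters. The window of mir-279/mir-996 held neither, and that of mir-957 held 3 fork head matches and ACACTG.

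A thresholded fd102C summit lay within 5 kb of 39 of the 198 miRNA loci, or 19.7%. Over every position that each locus could take on the known bases of its own arm, with the spacing of its hairpins kept, the share was 12.6%, which corresponds to 24.9 loci. Of all known bases of the arms, 12.2% had a thresholded summit within 5 kb. The miRNA loci thus exceeded arm positions, but protein-coding genes also lie closer to summits than arm positions do: 18.9% of the 13945 had a thresholded summit within 5 kb of the gene's 5′ end. The share of miRNA loci was close to that share. When each locus was compared only with bases as far from a protein-coding transcription start site (TSS) as the locus itself, a comparison chosen with the data already in view, 14.5% or 28.8 loci had a summit.

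The loci also exceeded arm positions in the longer pooled list, which contains background as well as binding. A pooled summit lay within 5 kb of 169 of the 198 loci, or 85.4%, against 70.9% over the positions the loci could take and 70.2% of all known bases. The median distance from a locus to the nearest thresholded summit was 22.5 kb, from 0 to 3599 kb, against a median of 35.3 kb over the known bases. To the nearest pooled summit it was 1331 bp, against 2038 bp over the known bases. These pooled shares and distances were not set beside protein-coding genes or bases as far from a protein-coding TSS.

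The loci fell into classes by where the hairpin lies. Of the 54 loci outside protein-coding genes, 14 had a thresholded summit within 5 kb (25.9%), against 12.9% over their arms, 10.5% over arm bases that are also outside protein-coding genes, and 12.8% over bases as far from a protein-coding TSS. Of the 126 loci inside a protein-coding gene on its strand, 24 had one (19.0%), against 12.4%, 13.7% and 15.4% by the same 3 comparisons. Of the 18 loci that lie inside a protein-coding gene only on the opposite strand, 1 had one (5.56%), against 12.7%, 14.2% and 14.0%. The excess over positions was therefore larger for the loci outside protein-coding genes than for those inside, and whether the classes differ was not tested.

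**Figure D1:**
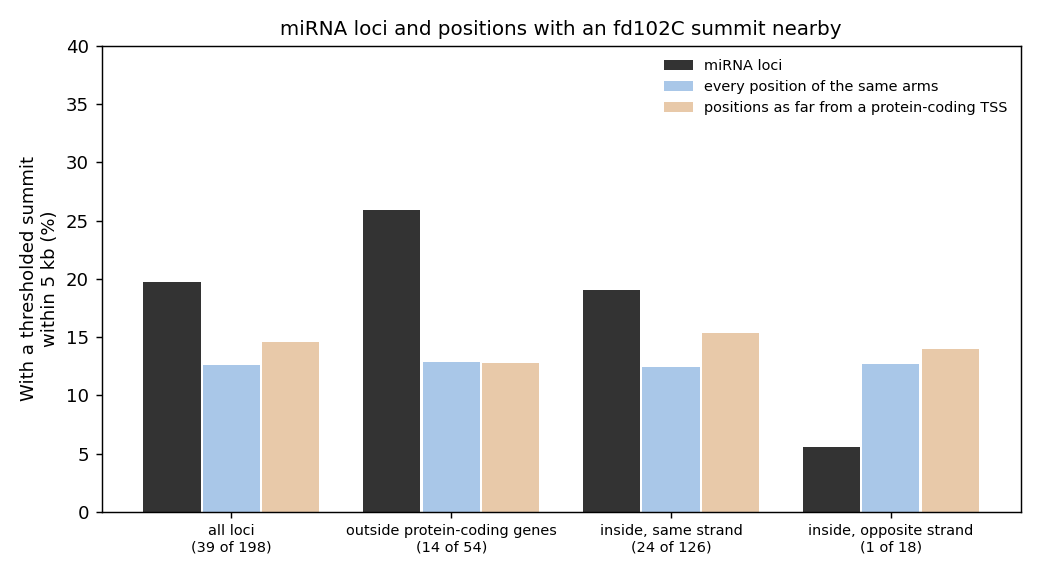
Percent of miRNA loci with a thresholded fd102C summit within 5 kb (black), of all positions the loci could take on the same arms (blue) and of positions as far from a protein-coding TSS (tan), for all loci and by class, with the number of loci in each under the bars. The black bar of the loci outside protein-coding genes, at 25.9%, stands above both of its position bars, and that of the opposite-strand loci, which rests on 1 locus, stands below them.

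The side on which summits lay also differed in number between the classes. For 12 of the 14 loci outside protein-coding genes the nearest summit was upstream of the hairpin in the direction of transcription, and for 2 (mir-bft and mir-955) it was downstream. Around the 52 of these loci whose hairpins are all on 1 strand, the 5 kb upstream held 12 summits and the 5 kb downstream held 3. Per 100 loci this was 23.1 upstream and 5.77 downstream, against a mean of 7.58 for 5 kb of their arms. Of the upstream summits, 4 lay within 1 kb of the hairpin and another 4 between 1 and 2 kb. For the 24 loci inside a gene of the same strand the nearest summit was upstream in 11, downstream in 10, over or between hairpins in 2, and at a locus with hairpins on both strands in 1. The 5 kb upstream of 123 such loci held 17 summits and the 5 kb downstream 13, or 13.8 and 10.6 per 100 loci against a mean of 7.59.

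**Figure D2:**
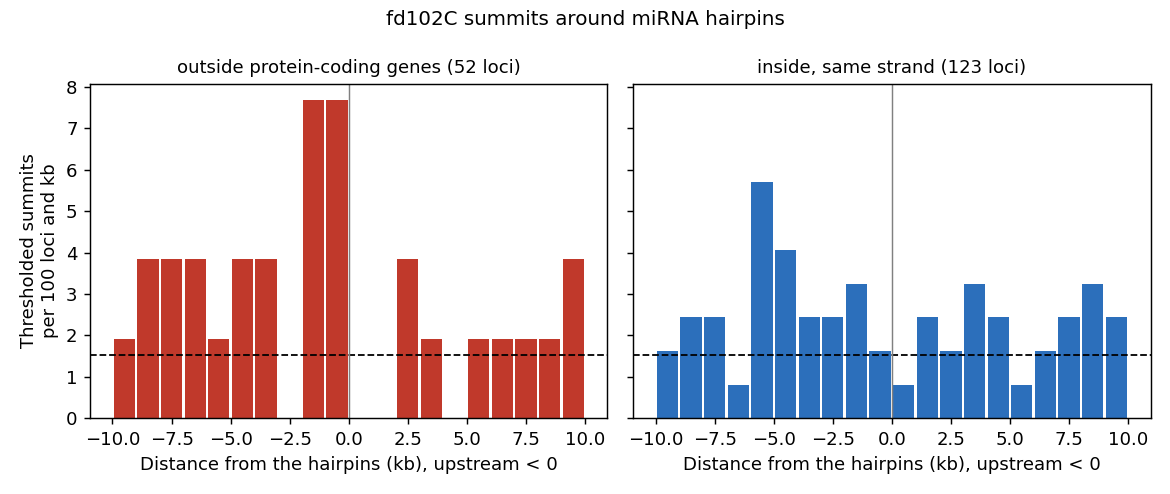
Thresholded fd102C summits per 100 loci and kb by distance from the hairpins (kb, negative upstream), for 52 loci outside protein-coding genes (left) and 123 inside a gene of the same strand (right). The dashed line is the mean of the loci's arms, and the tallest bars of the left panel are the 2 kb just upstream of the hairpin, with 4 summits in each kb.

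The loci outside protein-coding genes are described first, those with a named role leading. The highest peak near any miRNA locus belonged to mir-9a, which limits the number of sensory organ precursors by repressing senseless. It lay 4287 bp upstream of the hairpin at chr3L:19560712-19560966, had a signal of 709.6 in the pooled list and ranked 35 of the 2031. Its signal was 443 in replicate 1 and 276 in replicate 2, and its rank 28 and 48. The summit was 346 bp from the start of lncRNA:CR44676, while the long non-coding RNA that is annotated over the hairpin is lncRNA:CR45916.

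The pair mir-279 and mir-996, of which mir-279 blocks the fate of neurons that sense CO2, had 2 thresholded summits. The first lay 1142 bp upstream at chr3R:29214294-29214574, with a signal of 695, rank 37, and ranks 37 and 41 in replicates 1 and 2. It was 119 bp from the start of lncRNA:CR31044, the transcript annotated over both hairpins. The second, with a signal of 421 and rank 157 (189 and 153 in the replicates), lay 2892 bp downstream with its summit on a start of eEF1gamma, which encodes a translation elongation factor subunit, at 0 bp. The upstream peak is thus at the start of the annotated miRNA transcript, and the downstream one at that of a neighbouring gene.

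Bantam, which promotes tissue growth and blocks cell death by repressing hid, had a summit 1447 bp upstream of its hairpin at chr3L:640581-640940. The signal was 286 (rank 409), with 178 in replicate 1 (rank 329) and 111 in replicate 2 (rank 537). The summit lay inside lncRNA:CR43334, the transcript over the hairpin, 1047 bp from the nearest of its 3 annotated starts. A second thresholded summit in this transcript, outside the 5 kb used here, lay 7375 bp from the hairpin with a signal of 374 (rank 209).

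Both miRNA genes of growth and metabolism that lie outside protein-coding genes had a summit near an annotated start of their transcript. The summit of mir-14, which acts in cell death, fat storage and insulin production, lay 891 bp upstream of the hairpin and 27 bp from the start of lncRNA:CR43651, with a signal of 195 (rank 880; 1002 and 945 in the replicates). A far higher peak lay 6584 bp upstream, outside the 5 kb, with a signal of 833 and rank 19. A start of the protein-coding gene CG1888 lay 5627 bp upstream of the hairpin. This peak was thus far closer to that start than to the hairpin. The summit of mir-8, which tunes growth through the fat body and acts on Wingless signalling, lay 797 bp upstream and 54 bp from a start of lncRNA:CR43650, with a signal of 140.0 (rank 1640). It ranked 1195 in replicate 1 and had no summit within 100 bp in replicate 2, so this site rests on replicate 1 and the pooled list.

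The cluster mir-13b-1/mir-13a/mir-2c belongs to the K-box family, whose seed matches K-box sites in the messenger RNAs of Notch target genes and pro-apoptotic genes. Its summit lay 1076 bp upstream, with a signal of 176 (rank 1064), rank 945 in replicate 1 and none within 100 bp in replicate 2. The summit of mir-bft, the gene of bereft or mir-263a, which protects bristle cells from cell death, lay 3332 bp downstream with a signal of 143 (rank 1581; 1019 and 4390 in the replicates). The first of these peaks was near the middle of the thresholded list and the second in its lower part. Among the 2031 highest peaks of replicate 2, a summit at another position lay within 5 kb of mir-13b-1/mir-13a/mir-2c, and none lay within 5 kb of mir-bft.

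**Figure D3:**
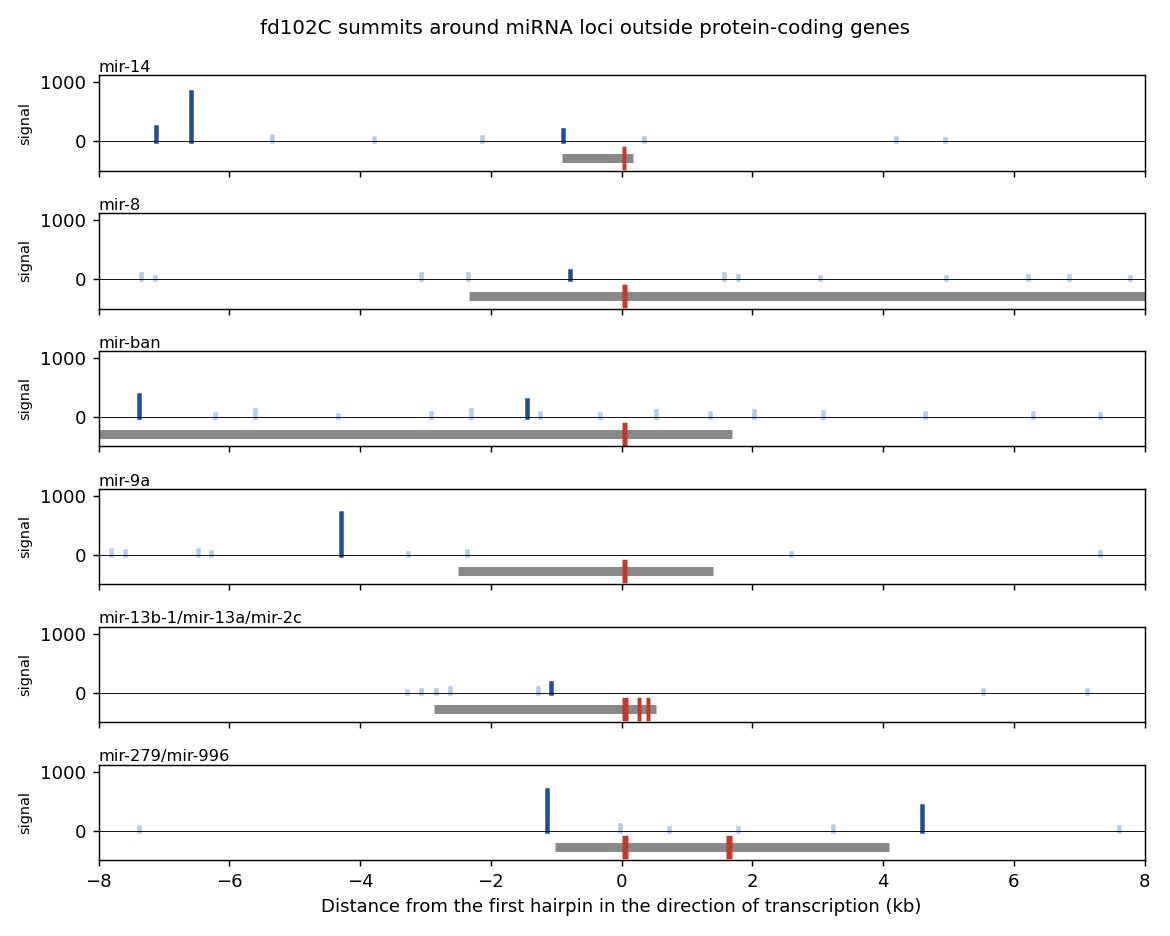
Peaks around 6 miRNA loci with a named role that lie outside protein-coding genes and have a thresholded summit upstream. The x axis is the distance from the first hairpin in the direction of transcription (kb), red marks are hairpins, grey bars are the long non-coding RNA over them, and vertical lines are summits with their pooled signal as height, dark for thresholded and light for pooled peaks under the threshold. The lines of mir-9a (709.6) and mir-279/mir-996 (695) are the tallest within 5 kb. The tallest line drawn is at 6584 bp in the mir-14 panel (833), closer to a start of CG1888 than to the hairpin.

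The other 7 loci outside protein-coding genes were mir-4981, mir-87, mir-2496, mir-9385, mir-955, mir-957 and mir-282. The peak of mir-4981 was the highest of them, with a signal of 394 (rank 187; 287 and 111 in the replicates), 850 bp upstream of the hairpin and 644 bp from a start of CG14762. The summit of mir-282 lay 863 bp upstream and 435 bp from the start of its transcript, lncRNA:CR43626, with a signal of 133 (rank 1823; 2259 and 1886). The summit of mir-957 lay 1918 bp upstream with a signal of 156 (rank 1346; 1120 and 1863), and no annotated start was closer than 9943 bp. The summit of mir-87, 3810 bp upstream with a signal of 199 (rank 846; 1228 and 672), was 1 bp from a start of the neighbouring gene CG4709. The remaining 3, mir-2496 (232), mir-9385 (179) and mir-955 (161), had summits between 2297 and 4269 bp away. Peaks of this class thus fell at starts of non-coding transcripts, at starts of neighbouring protein-coding genes and away from any start. Those at protein-coding starts (within 1 kb) were 4 of 15 summits. The summits of mir-ban, mir-13b-1/mir-13a/mir-2c, mir-bft, mir-2496, mir-9385 and mir-957 lay over 1 kb from any annotated start, from 1047 to 9943 bp away.

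Of the 54 loci outside protein-coding genes, 28 lie under an annotated long non-coding RNA of the same strand. In 4 of these 28 (14.3%) a thresholded summit lay within 1 kb of a start of that RNA, namely mir-14, mir-8, mir-282 and mir-279/mir-996. Over all 1944 annotated long non-coding RNA genes, 113 or 5.81% had one. The count is small, and the annotated start of such a transcript need not be that of the primary miRNA transcript.

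The 24 loci inside a protein-coding gene of the same strand had 33 summits, of which 18 lay within 1 kb of a protein-coding TSS. Of these loci, mir-7 and mir-263b are on the list of named roles, and mir-92a/mir-92b, which is not, is given with them for its shared seed. The summit of mir-7, which acts in photoreceptor differentiation and lies in the gene HnRNP-K, was 4821 bp upstream with a signal of 241 (rank 595; 540 and 716 in the replicates) and 1736 bp from a start of its host. The summit of mir-263b, which like mir-263a protects bristle cells from cell death, was 4509 bp upstream with a signal of 129 (rank 1937; 2444 and 11554), 3942 bp from a start of its host meru. The summit at mir-92a/mir-92b lay between the hairpins, 435 bp from the nearer one and 211 bp from a start of the host jigr1, with a signal of 190.3 (rank 924; 662 and 1914).

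The highest peaks of this class belonged to hairpins with no named role here. The locus mir-281-2/mir-281-1 in Oda, the gene of ornithine decarboxylase antizyme, had 3 summits, the highest 2269 bp upstream with a signal of 433 (rank 144; 128 and 181). The summit of the locus mir-4970/mir-9378 had a signal of 387 (rank 192; 180 and 247) and lay 150 bp from the nearer hairpin. The summit of mir-4972 in for, which encodes a cGMP-dependent protein kinase, had a signal of 380.2 (rank 202; 213 and 221) and was 397 bp from a start of for. The ranks of these 3 peaks in the replicates lay between 128 and 247.

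Several hairpins of this class had more than 1 summit or a summit on the hairpin itself. The hairpin mir-9377, in Tis11, which encodes a protein that destabilises messenger RNAs, had 4 summits, the highest 1294 bp downstream with a signal of 338 (rank 274). The peak of that summit overlapped the peak of the summit 1493 bp downstream, so these are not separate stretches of DNA. The summit 316 bp downstream ranked 4474 in replicate 1 and 605 in replicate 2. The hairpin mir-4949 in ATPsynC, a subunit of the mitochondrial ATP synthase, had 3 summits, and mir-4962 in the kinase gene Tlk and mir-4941 in Notum, the gene of a secreted Wingless inhibitor, had 2 each. One summit of mir-4962 lay over its hairpin, at a distance of 0 bp, with a signal of 189 (rank 932; 1047 and 974). In all, 6 of the 39 loci had more than 1 thresholded summit.

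At some other hairpins of this class the summit was at a start of a gene other than the host. The summit near mir-1004 was 206 bp from a start of bowl, a zinc finger gene of the odd-skipped family, with a signal of 319 (rank 320; 232 and 456). That near mir-2495 was 10 bp from a start of RpL37A and that near mir-9372 was 32 bp from a start of RpL36, both genes of large ribosomal subunit proteins, with signals of 204 and 148. That near mir-2501 was 94 bp from a start of msk. At mir-967 the summit was 146 bp from a start of its host bun, with a signal of 243 (rank 586; 394 and 730). The remaining loci of this class, mir-1005, mir-4910, mir-9382, mir-4943, mir-1006, mir-4968, mir-4918, mir-9371 and mir-2493, had signals from 126 to 263. The only locus of the opposite-strand class with a summit was mir-289 inside bru3, 2054 bp downstream, with a signal of 225 (rank 669; 517 and 703).

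**Figure D4:**
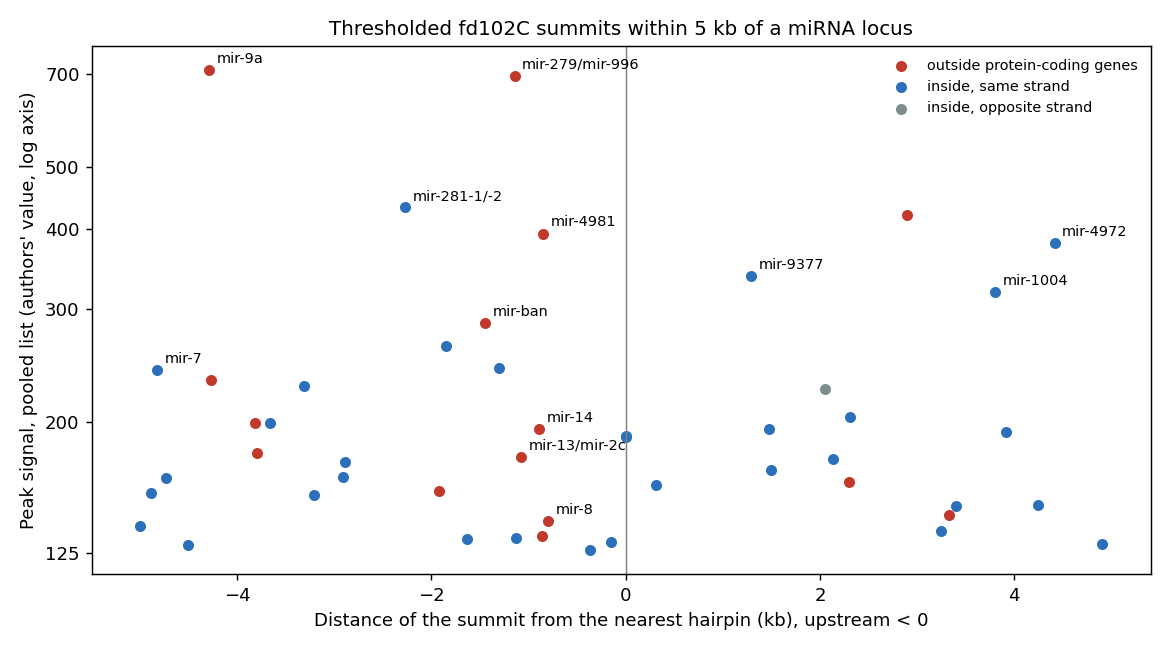
Each point is a thresholded summit within 5 kb of a miRNA locus, with its distance from the nearest hairpin (kb, negative upstream) and its pooled signal on a log axis, coloured by where the locus lies. The summit of the locus with hairpins on both strands is not drawn. The points of mir-9a (709.6) and mir-279/mir-996 (695) stand above all others, and most points of the loci outside protein-coding genes (red) are left of the hairpin.

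Peaks near miRNA loci were of ordinary strength for this list. Over the 49 distinct summits the median signal was 179, from 126 to 709.6, against a median of 181 over all 2031. When the thresholded list was split by signal into 4 equal parts, the highest held 11 of the 49 and the lowest also held 11. Their place in the genome was also like that of the list: 55.1% lay within 1 kb of any TSS against 53.1% of all thresholded summits, 30.6% lay elsewhere inside a protein-coding gene against 29.9%, and 14.3% lay outside against 17.0%. By distance to the hairpin they were spread evenly, with 10, 11, 8, 10 and 10 in successive kb.

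The replicates ranked these sites much alike at the top of the list and less so below. A summit lay within 100 bp in both replicates for 45 of the 49. The thresholded list derives from both replicates and is named for IDR, a measure of agreement between replicate peak lists. Such matches are therefore in part built in, and their share over all thresholded peaks was not counted. Among the 2031 highest peaks of each replicate, replicate 1 held 42 and replicate 2 held 38 of the sites, and both held 33, or 67.3%, against 67.5% of all thresholded peaks. When the 2031 highest peaks of each replicate were used alone, 31 of the 39 loci had a summit within 5 kb in both, 5 in replicate 1 only and 3 in replicate 2 only. The number of loci was 39 from replicate 1 and 35 from replicate 2.

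**Figure D5:**
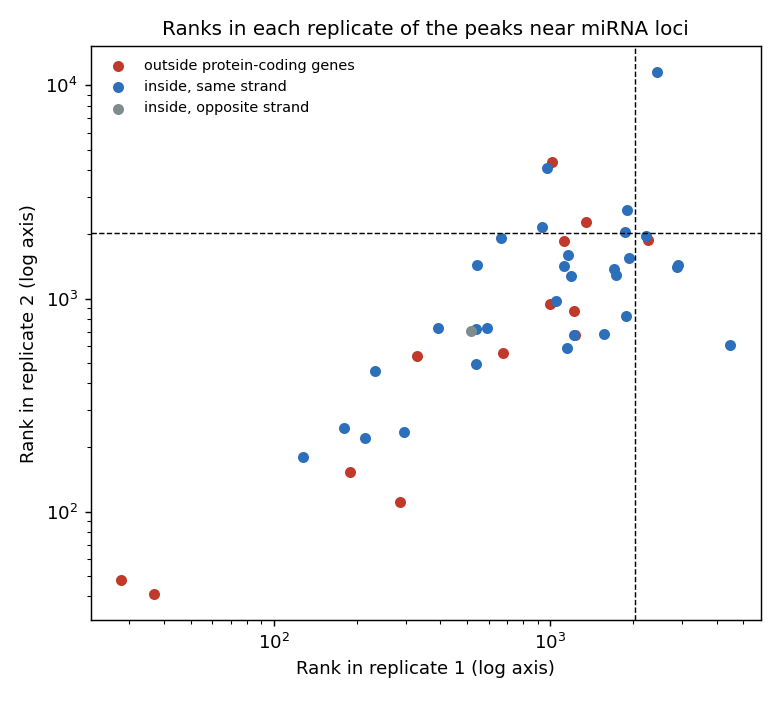
Rank of each peak near a miRNA locus in replicate 1 (x) and replicate 2 (y), both on log axes, for the 45 summits with a match within 100 bp in both. The dashed lines stand at rank 2031, and 33 of the points lie below and left of both, with mir-9a and mir-279/mir-996 at the lower left.

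Of the 25 loci with a named role, 9 had a thresholded summit within 5 kb (36.0%), against 13.6% over positions of their arms and 13.1% over bases as far from a protein-coding TSS, while 30 of the other 173 had one (17.3%), against 12.4% over their arms. The roles were listed with earlier results of these data known, and whether the 2 sets differ was not tested. The role loci without a summit included well-studied genes of the early embryo. The nearest thresholded summit was 53.2 kb from the mir-309 cluster, which the early zygote makes and which speeds the loss of maternal messenger RNA, though a pooled peak of rank 3576 lay 147 bp from it. It was 200.0 kb from mir-1 of mesoderm and muscle, 52.1 kb from mir-124/mir-287 of the nervous system, and 68.2 kb from the ageing cluster mir-317/mir-277/mir-34. Among the Hox cluster miRNAs it was 13.1 kb from mir-iab-4/mir-iab-8, 13.2 kb from mir-993 and 36.2 kb from mir-10.

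The let-7 complex, mir-100/mir-let7/mir-125, made from 1 primary transcript that times metamorphosis, was the first locus beyond the limit, with a summit 5094 bp downstream. The next were mir-1012 at 5388 bp and mir-1000 at 5454 bp, and the last inside were mir-4943 at 4730 bp, mir-7 at 4821 bp and mir-2501 at 4908 bp. Other K-box loci without a summit were mir-2a-2/mir-2a-1/mir-2b-2 in spi (5.62 kb), mir-998/mir-11 in E2f1 (8.34 kb), mir-2b-1 (16.5 kb), mir-308 in RpS23 (24.0 kb) and mir-13b-2 (50.1 kb). The remaining role loci were mir-184, of the female germ line and early embryo (8.91 kb), the cluster mir-9c/mir-306/mir-79/mir-9b (17.6 kb) and mir-278 (22.1 kb). Members of 1 seed family could thus lie near a summit (mir-9a, mir-13b-1/mir-13a/mir-2c) or far from one.

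Of the 159 loci without a thresholded summit, 130 had a pooled one, whose highest peak ranked from 2210 to 29667 with a median of 9230.5, and 29 had none. The 5 with the highest pooled signal were mir-276a (120.4, rank 2210, 1191 bp upstream), mir-2281 in cv-c (118, rank 2331), mir-4974 (116, rank 2393, 142 bp upstream), mir-iab-4/mir-iab-8 (113, rank 2526, 128 bp away) and mir-11182 (111, rank 2601). The first of these was only a little below the lowest thresholded signal of 126, so its absence from the thresholded list rests on where the threshold lies.

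By chromosome arm the loci with a thresholded summit numbered 12 of 39 on 2L, 5 of 40 on 2R, 10 of 30 on 3L, 7 of 48 on 3R, 1 of 2 on the fourth chromosome and 4 of 39 on X. Over positions the numbers of loci were 5.54, 4.77, 3.85, 6.28, 0.200 and 4.28 in that order. Loci exceeded positions mainly on 2L and 3L (30.8% and 33.3% of loci) and were close to them on 2R, 3R and X (12.5%, 14.6% and 10.3%). Of the 27 loci with several hairpins, 5 had a summit (18.5%), against 14.8% over positions.

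Fork head letters were counted within 100 bp of each summit. They were ATAAACA or ATAAATA or GTAAACA or GTAAATA on either strand, with matches allowed to overlap. They were present at 21 of the 49 summits near miRNA loci (42.9%, Wilson 95% interval 30.0 to 56.7, which covers counting error only), at 43.1% of all thresholded summits and in 24.6% of all windows of that length on the arms. The letters ACACTG, chosen after values had been seen, were at 7 of the 49 (14.3%, interval 7.10 to 26.7), at 18.3% of all thresholded summits and in 7.51% of the windows. At this width the windows near miRNA loci of all classes together held fork head letters as often as the whole list did. The classes were not alike. Among loci outside protein-coding genes, only the windows of mir-87, mir-957 and mir-9385 held fork head letters. The other windows of that class, including those of all its loci with a named role, held none. Whether the classes differ was not tested. Over all classes, the order of the shares changed with the width. Within 50 bp of the summit the share was 18.4% near miRNA loci (9 of 49, interval 9.98 to 31.4). It was 28.1% for all thresholded summits, which that interval covers, and 13.3% for windows of the arms. Within 250 bp it was 79.6% (39 of 49, interval 66.4 to 88.5), against 66.2% of all thresholded summits, just under that interval, and 49.0% of windows. The intervals treat the summits as independent, though several share a locus. No difference between these shares was tested.

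The genes that make and use miRNAs were looked at as a group of 19 protein-coding genes. A thresholded summit lay within 1 kb of a TSS of 3, AGO1, r2d2 and Tailor, against 9.08% of all protein-coding genes. The summit of r2d2, the partner of Dicer-2 in the siRNA pathway, was 179 bp from its TSS with a signal of 265 (rank 481; 471 and 489), and also 90 bp from a start of Herp. The summit of AGO1, the main Argonaute of miRNAs, was 55 bp from its TSS with a signal of 152 (rank 1407; 2664 and 1570), and 115 bp from a start of CG33155. The summit of Tailor, which uridylates hairpins made by splicing, was 605 bp from its TSS with a signal of 229.9 (rank 638; 453 and 1245), but only 89 bp from a start of alphaTub84B. Each of these 3 summits could therefore be counted for a neighbouring gene as well. With the gene and 5 kb on each side, 6 of the 19 had a summit, adding pasha, loqs and twin, against 23.9% of protein-coding genes. The summits nearest a TSS of these added genes were closer to starts of other genes. That of pasha was 1751 bp from its TSS and 66 bp from a start of Mnat9. That of loqs was 4781 bp from its TSS and 121 bp from one of Ing5, and that of twin 7816 bp and 162 bp (CG6204). None of drosha, Dcr-1, Ranbp21, the exporter of hairpins, or gw, the partner of AGO1, had a thresholded summit by either measure, though gw had one within 1 kb among the highest 2031 peaks of each replicate.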

How the data were processed

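The peak lists hold, for each peak, a signal value, a −log10 q-value and a summit position as deposited by the authors, and the p-value field was empty. Per the notes deposited beside the lists, the authors called peaks replicate by replicate and again on the pooled replicates, with a control library as reference (not used here). The assembly is dm6, per the labels, and chromatin was sonicated. The thresholded list is named for IDR, but the cutoff behind the threshold was not given in the sources used here. Neither were the aligner and the peak caller, and depth is unknown because the lists hold no read counts. Embryo age was taken from the source name in the labels, since their age field gives an impossible number of hours.

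Peaks were ranked by the deposited signal, with the deposited −log10 q-value breaking ties. Genes came from Ensembl release 115 (BDGP6, the same assembly). Transposable elements and entries for mature miRNAs were left out, which left 23257 start positions on the arms (X, 2L, 2R, 3L, 3R and 4). Mature miRNAs and windows were read from the RefSeq Release 6 annotation and assembly, and the products of 6 hairpins on 2R are not printed. Distances ran from the hairpin to the summit. Shares over positions count every placement of each locus on the known bases of its arm (133647856 bases over all arms), and the counting was tested on simulated data. Replicate peaks were matched within 100 bp. No statistical test was made, as there is 1 group.

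Every locus with a thresholded summit within 5 kb is named, as are the loci with a listed role, the 5 highest loci with a pooled summit alone, and each gene of miRNA production with a summit. The bantam peak at 7375 bp, the peak 6584 bp from mir-14 (with CG1888) and gw were named after their values were seen. The members and lists were chosen with earlier results of these data known. Alternatives were the window, the joining distance, the hairpins used, the peak list, each replicate alone and the motif width, and the comparison by distance from a protein-coding TSS was added after seeing the data. Python 3.11.15, numpy 2.4.6, pandas 2.3.3 and scipy 1.17.1 were used.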

Additional observations from a re-analysis of the deposited data

How the results depend on the processing

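The number of loci with a thresholded summit moved with the window, from 18 of 198 within 2 kb (5.86% expected over positions) to 65 within 10 kb (21.7% expected). With the 1016 strongest peaks it was 22 (6.82% expected), and with no locus inside a protein-coding gene of its strand it was 15 of 72 (12.8% expected). The share of loci exceeded that of positions in all of these. The number was 40 when any base of a peak counted (12.9% expected) and 44 of 260 with each hairpin alone (12.2% expected). It was 39 of 202 when hairpins were joined within 5 kb (12.4% expected). With either replicate alone it was from 35 to 39 (12.6% and 12.5% expected). Loci with a pooled summit numbered 61 of 72 (84.7%) with no locus inside a gene of its strand, against 71.5% expected over positions. The median distance was 48.8 kb with the strongest peaks and from 22.8 to 24.0 kb with either replicate alone. Genes of miRNA production with a summit numbered 6 of 19 with 5 kb on each side of the gene, against 23.9% of protein-coding genes. With either replicate alone they numbered from 3 to 6 of 19, against 8.99% (replicate 1) and 9.61% (replicate 2) of protein-coding genes. Replicate 2 gave AGO1, gw, r2d2, Tailor, PAN2 and Pop2. Summits with fork head letters were 18.4% within 50 bp and 79.6% within 250 bp, against 28.1% and 66.2% of all thresholded summits. The cause of these differences was not tested, and those with the window follow from its width. No paired analysis was possible because there is 1 group. Depth is unknown, so a locus without a thresholded summit is one where none was called, not one shown to be unbound.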
